A study of Mus musculus with 10 samples.

Results

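J-domain proteins are the co-chaperones that deliver substrates to Hsp70 and switch on its ATPase, and each one sets where and on what an Hsp70 works. Class A and B members bind unfolded protein themselves, whereas class C members share only the J domain and tie Hsp70 to one task, such as ribosome maturation, protein import into mitochondria or the uncoating of clathrin vesicles. The genes were taken by symbol as every single platform symbol that starts with Dnaja, Dnajb or Dnajc. This gave 44 of the 18193 genes measured, with 4 in class A, 13 in class B and 27 in class C. Each gene was represented by its brightest probe set, the one with the highest mean log2 level over all 10 arrays. The family was singled out because Dnajc21 was known to be among the largest decreases in this comparison, so the change of Dnajc21 is given as a description, without a p-value.

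The samples were murine Mll-AF9 leukaemia cells, line 4166, a myeloid leukaemia driven by the fusion of Mll with AF9. In 5 samples the cells carried a lentivirus expressing an shRNA against Meis1, a TALE homeodomain transcription factor, and in 5 control samples they carried the empty lentiviral vector. Both groups were grown with interleukin 3, selected with puromycin and profiled at 48 h on Affymetrix mouse arrays, and the labels pair shRNA and control samples by number. The labels name 1 shRNA and 1 leukaemia line. Separate cultures per sample are not stated, so each p-value reflects the scatter among these 10 arrays, and that scatter may be technical.

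Meis1 itself read 192.6, 220.7, 126.7, 142.4 and 140.2 in shRNA samples 1 to 5, against 395.9, 413.1, 297.1, 332.7 and 290.3 in their control partners, on the deposited linear intensity scale (log2 change -1.09, SE 0.08, limma adjusted p = 0.000636). Its other 2 probe sets were dim and changed by 0.09 (1443260_at) and 0.11 (1459423_at), so the mean of the 3 changed by -0.29. Of 7 markers of myeloid leukaemia cells, 6 had a mean log2 level over 5, among them Mpo, the granule peroxidase, and 3 fell (Kit, Elane and Ptprc). Itgam, Spi1 and Csf1r had positive log2 changes of 0.45, 0.33 and 0.18, each higher with the shRNA in 4 of 5 pairs, and did not pass (limma adjusted p of 0.194, 0.128 and 0.486). All 3 measured erythroid markers, all 4 lymphoid markers and all 6 endothelial and stromal markers were at a mean log2 level of 5 or less. In the last list Pecam1, which myeloid cells also carry, fell (log2 change -0.71, limma adjusted p = 0.0369), and the summed intensity of the list was 35.9 to 54.9 in shRNA arrays and 38.2 to 70.7 in control arrays. The part of such markers in the results below was not tested. In bulk RNA, fewer cells of a type and less RNA per cell cannot be told apart.

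The sequences upstream of 3 members are shown because Meis1 binds DNA and because these members carry results below or known stress elements. They come from RefSeq, build GRCm38.p6, which listed a window of 250 bases before the start for 36 of the 44 genes. The core recognised by Meis proteins, TGACAG on either strand, occurred in the windows of 6 of these 36 genes (16.7%), against 18% of all 27025 genes in the table. Dnajc21, whose upstream bases lie at chr15:10470569-10470766 on the minus strand, did not hold it in its window. That says only that these letters were not there. In its 198 bases below, CG pairs are in capitals. They number 19, against a median of 4.0 in stretches of the same length from all windows.
Dnajc21: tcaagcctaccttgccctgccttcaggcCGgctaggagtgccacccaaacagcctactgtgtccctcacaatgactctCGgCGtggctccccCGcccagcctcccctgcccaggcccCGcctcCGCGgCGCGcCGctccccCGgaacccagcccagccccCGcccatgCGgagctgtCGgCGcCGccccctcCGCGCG
Dnajc3, at chr14:118937725-118937860 on the plus strand, held both TGACAG and the endoplasmic reticulum stress element (CCAAT, any 9 bases, then CCACG, on either strand), each in capitals. The stress element occurred in 0.13% of all genes.
Dnajc3: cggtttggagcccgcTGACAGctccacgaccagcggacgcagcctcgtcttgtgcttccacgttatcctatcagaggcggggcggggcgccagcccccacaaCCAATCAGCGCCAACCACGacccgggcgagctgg
Dnajb6, at chr5:29735837-29735879 on the plus strand, was the 1 member with a heat shock element (GAA, any 2 bases, TTC, any 2 bases, GAA, on either strand, in capitals), which 0.514% of all genes held.
Dnajb6: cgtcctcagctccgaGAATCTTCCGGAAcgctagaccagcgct
The other genes with TGACAG were Dnajb5, Dnajc8, Dnajc13, Dnajc15 and Dnajc27.

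Dnajc21 was the member with the deepest decrease. It is the relative of yeast Jjj1, a cytosolic factor of the last steps of large ribosomal subunit assembly, and its loss in people causes a bone marrow failure syndrome. Probe set 1460711_at (Entrez gene 78244, chromosome 15) read 83.3, 73.0, 77.6, 57.3 and 73.1 in shRNA samples 1 to 5, against 263, 250.3, 238.3, 270.3 and 192.4 in their control partners. The groups did not overlap, and the highest shRNA array stood well under the lowest control array. The means were 72.9 ± 9.68 with the shRNA and 242.9 ± 30.7 with the empty vector (SD, n = 5 each), a level 3.33-fold lower. The log2 change was -1.74 (SE 0.12), and the 5 pair differences were -1.66, -1.78, -1.62, -2.24 and -1.40. Pair 4 had the largest difference and pair 5 the smallest.

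The 5 probe sets of Dnajc21 did not move alike. The second to fall, 1457281_at, read 11.1, 7.31, 12.9, 10.1 and 12.5 in the shRNA samples, against 25.5, 25.3, 31.8, 38.2 and 24.0 in the controls, a log2 change of -1.43 (SE 0.15). Its groups were also apart. Probe set 1420219_at read 15.4, 23.2, 22.2, 12.1 and 51.0 in the shRNA samples, against 34.4, 40.3, 34.0, 11.8 and 13.8 in the controls. There the shRNA sample was lower in pairs 1 to 3, close to its control in pair 4 and higher in pair 5, and the log2 change was -0.13 (SE 0.37). The dimmer 1420220_x_at changed by -0.30 (SE 0.25), with the shRNA sample lower in 4 of 5 pairs and again higher in pair 5. The dimmest, 1420221_at, lay between 4.38 and 4.90 with the shRNA and between 4.17 and 4.71 with the empty vector. As the mean of its 5 probe sets Dnajc21 changed by -0.71.

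**Figure D1:**
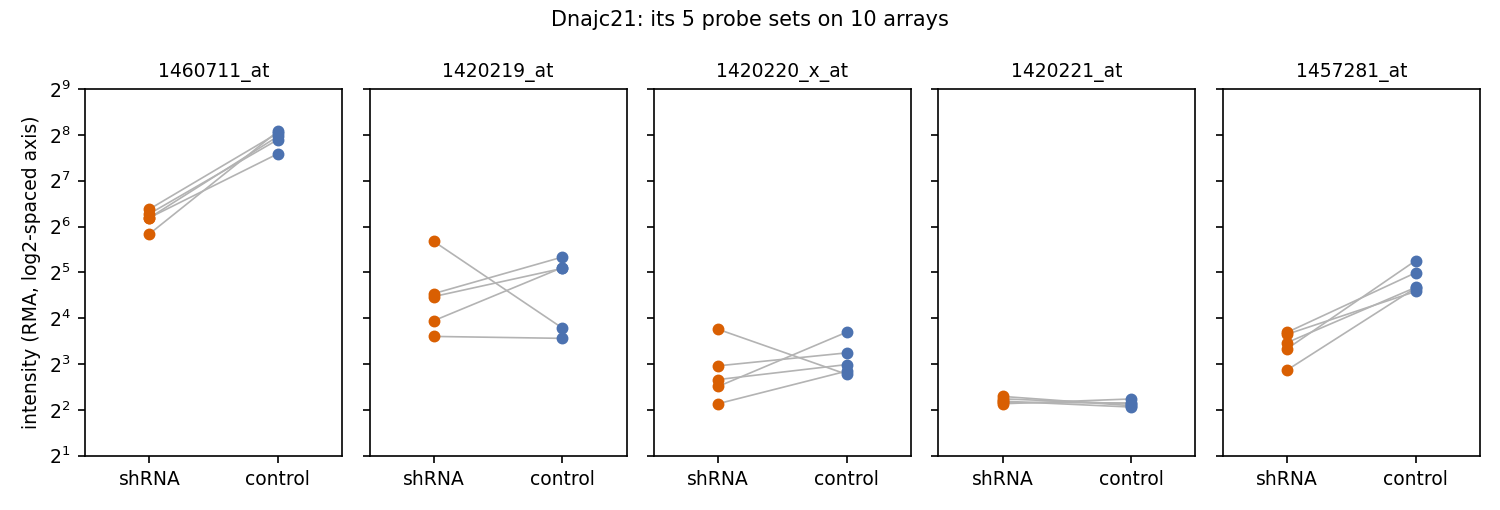
Intensity of each Dnajc21 probe set (one panel each, log2-spaced axis) on the 5 Meis1 shRNA arrays (orange, left) and the 5 control vector arrays (blue, right), with a grey line joining each pair. The groups stand apart for 1460711_at and 1457281_at, overlap for 1420219_at and 1420220_x_at, where pair 5 runs upward with the shRNA, and sit near the bottom for 1420221_at.

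A measure of RNA integrity moved with the groups as well. Taken from the array's own Gapdh and actin control probe sets, the log2 ratio of 3 prime over 5 prime signal was 0.37 ± 0.02 with the shRNA and 0.28 ± 0.06 with the empty vector (SD, n = 5 each), higher with the shRNA in 5 of 5 pairs (exact two-sided sign-flip permutation p = 0.0625, the smallest that 5 pairs allow). With that ratio added to the paired model the change of Dnajc21 was -1.35 (SE 0.16), and no member passed the limma threshold (1 was at an unadjusted p under 0.05). That fit called 2 of all 18193 genes, and Meis1 changed by -0.98 in it without passing (limma adjusted p = 0.186). Because the ratio was higher with the shRNA in every pair, this fit cannot fully tell the ratio and the group apart. Within pairs the ratio differed most in pair 4, at 0.39 with the shRNA and 0.20 with the empty vector. It differed least in pair 5, at 0.39 and 0.37. These pairs also had the largest and smallest difference of Dnajc21. The part of RNA integrity in the results was not tested further.

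Among the 44 genes, 1 fell (Dnajc21), none rose and 43 did not pass the limma test with Benjamini-Hochberg adjustment over all genes at 0.05. Over all genes, 4.06% passed, 2.98% lower and 1.08% higher. The share of the lower among all calls was 73.5%, and 55.3% after quantile normalization. The 1 call is the gene that drew attention to the family, so nothing is read from it, and the other 43 members gave no call. Alternative settings called 3 to 6 members in 6 cases, all lower, 2 without pair 5, and none with the RNA integrity ratio in the model. The genes added were Dnajc3, Dnajc5, Dnajc9, Dnajc10, Dnajc16 and Dnajb11. In those 6 cases 743 to 1497 genes of the whole table passed, and without pair 5 it was 929. Trend and robust eBayes called 5 of 44 members, Dnajc21 included, against 1497 of 18193 genes. The mean of probe sets called 6 of 44, against 855 of 18193. Among brighter genes alone the calls were 5 of 25 members, against 1305 of 6721 genes. The median log2 change was -0.01 over the members and 0.00 over all genes, with 26 members below 0 and 18 above. Leaving Dnajc21 aside, 8 of 43 members had an unadjusted limma p under 0.05 (18.6%), against 18% of all genes. The shRNA and control arrays did not overlap for 4 of these 43 with lower values (Dnajc5, Dnajc9, Dnajc16 and Dnajb11) and for 2 with higher values (Dnajb6 and Dnajb7). Over all genes such a separation held for 3.45% lower and 1.53% higher. All 5 pairs were lower for 6 of the 43, or 14.0%, against 10.3% of all genes, and all 5 higher for 2, against 7.45%. In brightness the family was mixed. The mean log2 level was over 5 for 25 members and 5 or less, called dim here, for 19.

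**Figure D2:**
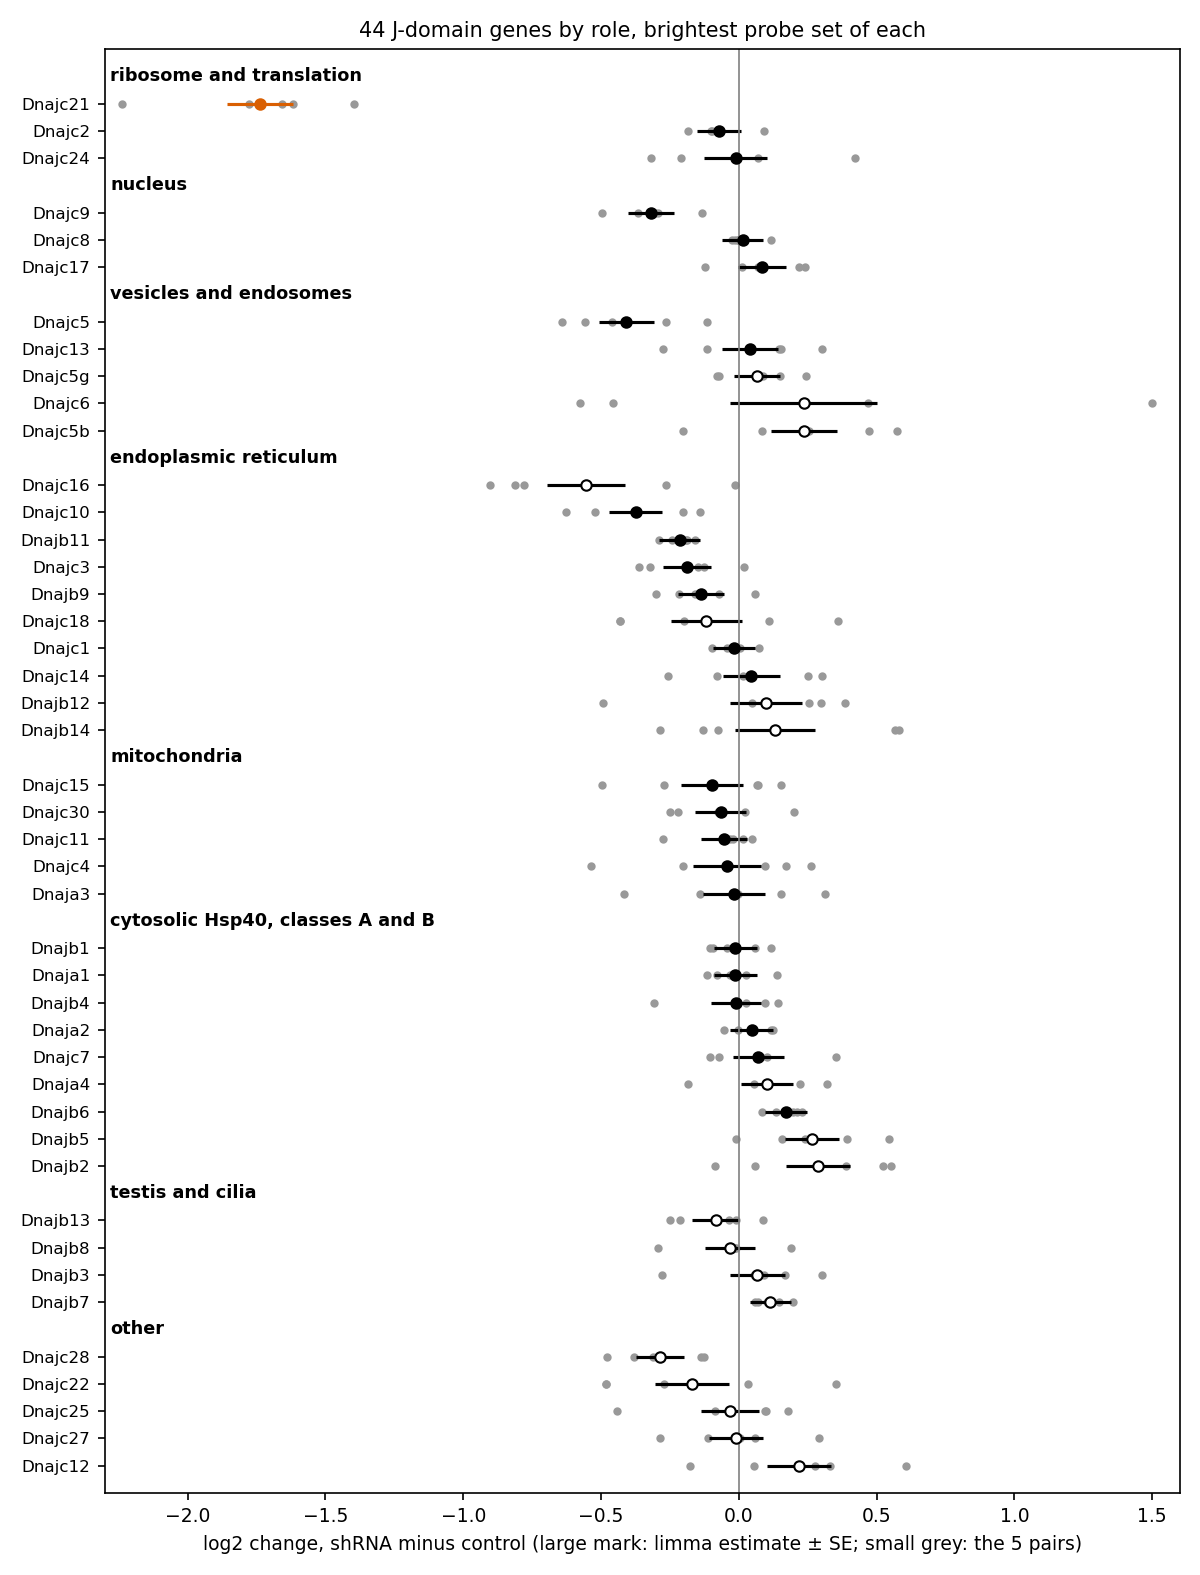
Log2 change (shRNA minus control, horizontal axis) of the brightest probe set of each of the 44 J-domain genes, grouped by role, as limma estimate ± SE with the 5 pair differences in grey. Orange marks an adjusted p under 0.05, and open marks a mean log2 level of 5 or less. Dnajc21 stands alone near -1.74, and the next lowest estimate is Dnajc16 at -0.55.

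The other J-domain genes of the ribosome and of translation differed little by their brightest probe sets. Dnajc2, the ribosome-bound partner of Hspa14 that meets nascent chains, read 1389, 1337, 1263, 1175 and 1214 with the shRNA, against 1491, 1431, 1321, 1335 and 1140 with the empty vector, and the groups overlapped (log2 change -0.07, SE 0.08, limma adjusted p = 0.714). Dnajc24, which takes part in making diphthamide on elongation factor 2, changed by -0.01 (SE 0.11). Of 3 further probe sets for Dnajc2, 1454219_at was lower in all 5 pairs. It read 17.6, 9.91, 10.3, 11.5 and 14.0 with the shRNA, against 24.4, 20, 13.3, 24.4 and 17.2 with the empty vector (log2 change -0.65, SE 0.14, limma adjusted p = 0.0471 over all probe sets). This probe set passed in 4 of 12 alternative settings.

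In the nucleus, Dnajc9, a co-chaperone of histones H3 and H4, was the member that differed most. Its intensities were 957.1, 901.7, 897.5, 846.6 and 895 with the shRNA, against 1172, 1273, 1156, 1044 and 981.6 with the empty vector. The groups were apart but close in pair 5, and the change of -0.32 (SE 0.08) did not pass (limma adjusted p = 0.0775). Among the alternatives it passed with a random block (0.0461), with trend and robust eBayes (0.00316), among brighter genes (0.021) and in the fit of probe set means (0.0482). Dnajc17 and Dnajc8, both tied to splicing, changed by 0.08 (SE 0.09) and 0.01 (SE 0.08), and their groups overlapped.

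Dnajc5, the cysteine string protein of secretory vesicles, was lower with the shRNA in each of its 5 probe sets. The brightest, 1436180_at, read 311.6, 356.8, 238.8, 281.6 and 326.2 with the shRNA, against 428.2, 386.7, 372.9, 414.3 and 391.8 with the empty vector. No shRNA array reached a control array, yet the log2 change of -0.41 (SE 0.10) missed the threshold (limma adjusted p = 0.0606). The second brightest, 1436179_a_at, changed by -0.29 (SE 0.09) and did not pass either. Over all 45037 probe sets 2 of the 5 fell, namely 1448851_a_at (-0.72, SE 0.10, limma adjusted p = 0.00714), which also passed without each pair in turn, and 1448850_a_at (-0.53, SE 0.11, limma adjusted p = 0.0421), which passed in 1 of the 5 such fits. Probe set 1448851_a_at read 27.8, 26.9, 19.1, 25.0 and 30.6 with the shRNA, against 39.7, 39.2, 35.6, 45.4 and 51.7 with the empty vector, with no overlap. As the mean of its probe sets Dnajc5 changed by -0.43 and passed (limma adjusted p = 0.0153). Other members of vesicles and endosomes showed no such pattern. Dnajc13, the endosomal RME-8, changed by 0.04 (SE 0.10). Dnajc5b (0.24, SE 0.12, limma adjusted p = 0.357), Dnajc5g (0.07, SE 0.08) and Dnajc6, the clathrin-uncoating auxilin (0.24, SE 0.27), were dim and did not pass.

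In the endoplasmic reticulum, 7 of 10 members had a change below 0 and none passed by its brightest probe set. The median was -0.13. Dnajc10 (ERdj5), a reductase of misfolded proteins, read 393.7, 399.3, 353.1, 338.5 and 560.4 with the shRNA, against 452.8, 440, 459.4, 522.9 and 805.3 with the empty vector (log2 change -0.37, SE 0.10, limma adjusted p = 0.0745). Each shRNA sample was below its partner, though the array of shRNA sample 5 exceeded all controls but its own. Another probe set of the gene, 1426905_a_at, fell by 0.44 on the log2 scale (SE 0.08, limma adjusted p = 0.0298 over all probe sets) and passed in 5 of 13 alternative settings. Dnajc16 was dim, at 8.52, 7.74, 9.15, 11.4 and 13.1 with the shRNA, against 15.9, 13.3, 16.1, 13.6 and 13.3 with the empty vector. Its groups were barely apart (log2 change -0.55, SE 0.14, limma adjusted p = 0.0709), and it passed in 6 of the alternative settings, one of them without pair 5 (-0.69, limma adjusted p = 0.0222).

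Dnajc3 (p58IPK), an inhibitor of the stress kinase Perk and a lumenal co-chaperone, was another member whose probe sets disagreed. Its brightest set, 1433887_at, read 239.8, 251.5, 351.4, 332.1 and 436.6 with the shRNA, against 299.7, 278.8, 383.9, 427.1 and 430.9 with the empty vector. The groups overlapped, and the change was -0.19 (SE 0.09, limma adjusted p = 0.308). Yet 3 of its other 4 probe sets fell, with shRNA and control arrays fully apart. Probe set 1419162_s_at read 118.5, 146.3, 161, 150.7 and 177.8 with the shRNA, against 193.6, 187, 253.6, 265.1 and 309.1 with the empty vector (-0.67, SE 0.10, limma adjusted p = 0.0104). Similarly, 1449372_at read 205.5, 180.8, 173.2, 178.2 and 246.8 with the shRNA, against 251.1, 273.4, 316.4, 302.5 and 311.2 with the empty vector (-0.57, SE 0.11, limma adjusted p = 0.034). The dim 1449373_at changed by -0.76 (SE 0.10, limma adjusted p = 0.0053) and passed without each pair in turn, while the other 2 passed in 3 and 1 of those 5 fits. Dnajb11 (ERdj3), a lumenal partner of the Hsp70 BiP, read 196 to 216.3 with the shRNA and 231.9 to 254.9 with the empty vector, apart by a small margin (-0.21, SE 0.07, limma adjusted p = 0.172). Dnajb9 (ERdj4), which helps restrain the sensor Ire1, changed by -0.14 (SE 0.08). Dnajc1, Dnajc14, Dnajc18, Dnajb12 and Dnajb14 lay between -0.12 and 0.13.

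Of the 104 single-symbol probe sets of the 44 genes, 9 fell (8.65%) and none rose, against 2.48% of all probe sets called, 1.96% lower. They belonged to 5 genes, Dnajc21, Dnajc3, Dnajc5, Dnajc10 and Dnajc2. Since Dnajc21 drew attention to the family, nothing is read from its 2, and without its 5 probe sets 7 of 99 were called (7.07%). Probe sets of 1 gene share its transcript, so they are not independent, and these genes beyond Dnajc21 were picked out after their values were seen. Without Dnajc21 the count was 2 to 8 with 1 pair left out, 3 after quantile normalization, and 0 with the RNA integrity ratio in the model. The count over all 45037 probe sets moved as well, at 359 to 1674, 985 and 0 in these settings. Members were also brighter than the whole table, which bears on these shares. A mean log2 level over 5 was held by 47 of the 104, against 11215 of all 45037 probe sets. In the fit limited to brighter probe sets, 13 of the 47 were called (12 without Dnajc21), against 2040 of the 11215. There 1 probe set rose, 1457233_at of Dnaja2 (0.36, limma adjusted p = 0.0373), which did not pass over all probe sets (limma adjusted p = 0.128). With the RNA integrity ratio no probe set of the whole table passed, and the log2 changes of the 9 lay between -1.35 and -0.35.

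**Figure D3:**
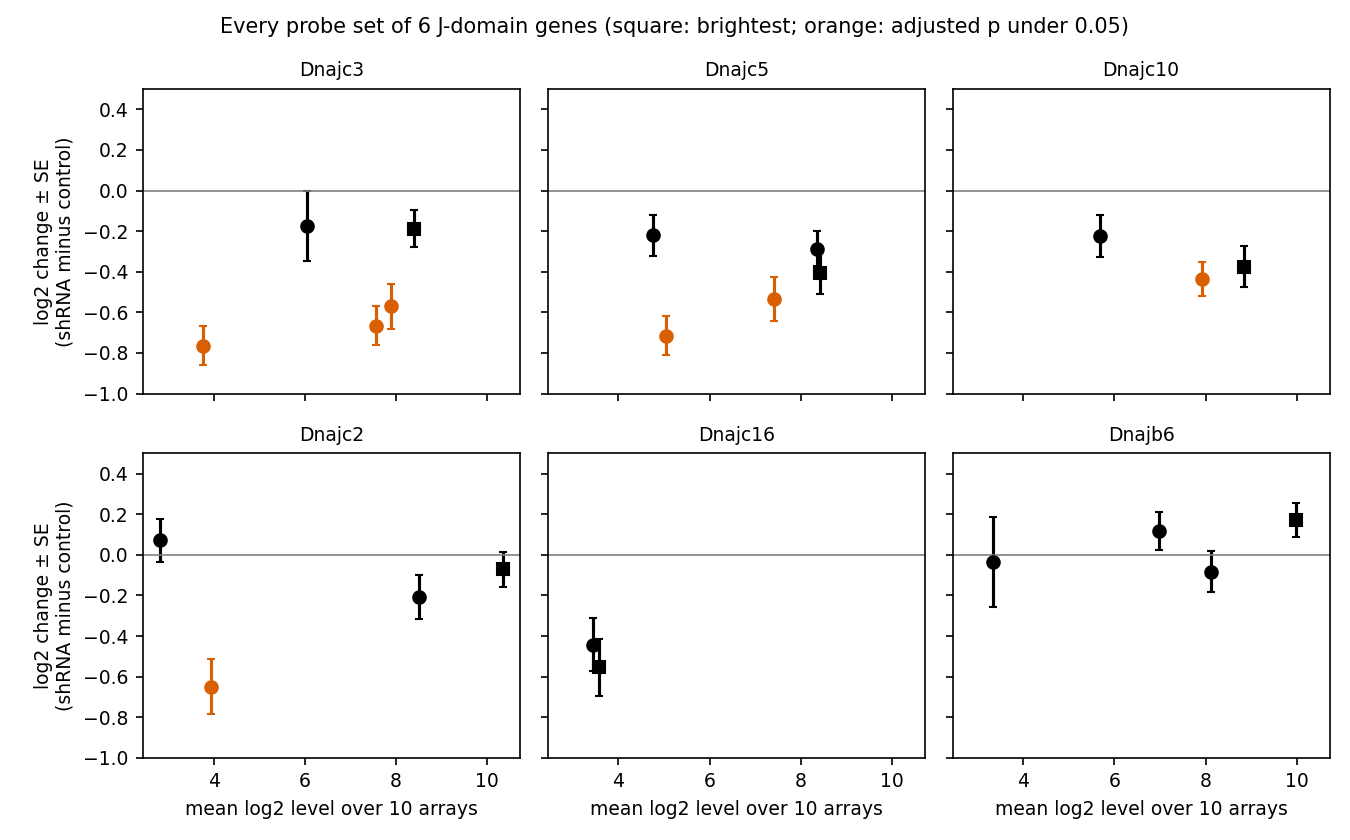
Log2 change ± SE (shRNA minus control, vertical axis) of every probe set of 6 J-domain genes against its mean log2 level over 10 arrays. Squares mark the brightest probe set and orange an adjusted p under 0.05 over all probe sets. In Dnajc3, Dnajc5, Dnajc10 and Dnajc2 an orange mark lies below a black square, and the probe sets of Dnajb6 lie on both sides of 0.

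The cytosolic members, which serve Hsp70 in folding newly made and stressed proteins, did not pass in either direction. Their median log2 change was 0.07, with 6 of 9 above 0. By their brightest probe sets Dnaja1 and Dnaja2, the main class A Hsp40s, changed by -0.01 (SE 0.08) and 0.05 (SE 0.08). Their other probe sets changed by -0.27 and -0.15 (Dnaja1) and by 0.36, 0.18 and 0.01 (Dnaja2). None of these passed over all probe sets. The one at -0.27 was lower in all 5 pairs, and those at 0.36 and 0.18 were higher in all 5. Dnajb1, the heat-inducible Hsp40, read 415.1, 404.5, 663.2, 600.8 and 553 with the shRNA, against 427.2, 431.9, 611.8, 645.9 and 530.3 with the empty vector. Its level thus differed far more between pairs than between groups (log2 change -0.01, SE 0.08). Dnajb6, which suppresses protein aggregation, read 1165, 1025, 1077, 1045 and 1039 with the shRNA, against 1006, 966.4, 918.6, 951.2 and 906.5 with the empty vector. All shRNA arrays were above all control arrays, by a small amount (0.17, SE 0.08, limma adjusted p = 0.278). Of the other bright probe sets of the gene, 1434035_at changed by 0.12 (SE 0.09) and 1429776_a_at by -0.08 (SE 0.10). Dnajb2 (0.29, SE 0.11, limma adjusted p = 0.229) and Dnajb5 (0.26, SE 0.10, limma adjusted p = 0.197) had the largest positive changes of the family and were dim. Dnaja4, Dnajb4 and Dnajc7 lay between -0.01 and 0.10.

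Mitochondrial members kept close to 0. The 5 measured, Dnajc15, Dnajc30, Dnajc11, Dnajc4 and Dnaja3, had changes between -0.10 and -0.02, none of which passed. Dnajc15, an inner membrane protein that restrains respiratory complex I, read 451.5, 474.9, 370.2, 295.6 and 397 with the shRNA, against 430.7, 426.7, 447.1, 417.4 and 379.6 with the empty vector. The shRNA sample was higher than its partner in pairs 1, 2 and 5 and lower in pairs 3 and 4. Its change of -0.10 (SE 0.11) and that of Dnajc30 (-0.07, SE 0.09) turned positive in some alternative settings. Dnajc19, a subunit of the import motor, is not a member because its probe sets also list its pseudogene. The brightest of the 3, 1423625_a_at, read 673, 513.4, 618.1, 587.2 and 637.6 with the shRNA, against 786.2, 830.5, 717.2, 671.8 and 685.1 with the empty vector. It was lower in all 5 pairs and did not pass (-0.29, SE 0.11, limma adjusted p = 0.243).

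The 4 members known from testis and cilia (Dnajb3, Dnajb7, Dnajb8 and Dnajb13) read between 2.53 and 5.12 on every array, all at the dim end of the arrays. Dnajb7 counted among the members whose groups did not overlap (4.34 to 4.55 with the shRNA, 3.86 to 4.27 with the empty vector) and its change of 0.11 (SE 0.07) did not pass (limma adjusted p = 0.496). Of the 5 genes given no role here, Dnajc12, Dnajc22, Dnajc25, Dnajc27 and Dnajc28, none passed and all were dim. Dnajc28 was lower in all 5 pairs (-0.29, SE 0.09, limma adjusted p = 0.122), and Dnajc12 changed by 0.22 (SE 0.12). Dnajc22, Dnajc25 and Dnajc27 lay between -0.17 and -0.01.

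Several members varied between pairs in both groups. Dnajb1, Dnajb9, Dnajc3 and Dnajc12 had lower intensities in samples 1 and 2 than in samples 3 to 5, in shRNA and control arrays alike. Those of Dnajc12 were 15.5, 12.9, 25.7, 33.8 and 25.1 with the shRNA and 12.3, 14.6, 21.2, 22.2 and 24.2 with the empty vector. The myeloid marker Elane had the same order, at 921.9 to 1024 in shRNA samples 1 and 2, against 1285 to 1421 in their controls, and 2465 to 3000 in shRNA samples 3 to 5, against 3347 to 3671. Dnajc10 was highest in sample 5 of each group. The SD of log2 levels among the 5 control arrays reached 0.42 in Dnajc12 and 0.36 in Dnajc10. The pairing removes such differences from the test, and the labels do not say what sets the pairs apart.

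**Figure D4:**
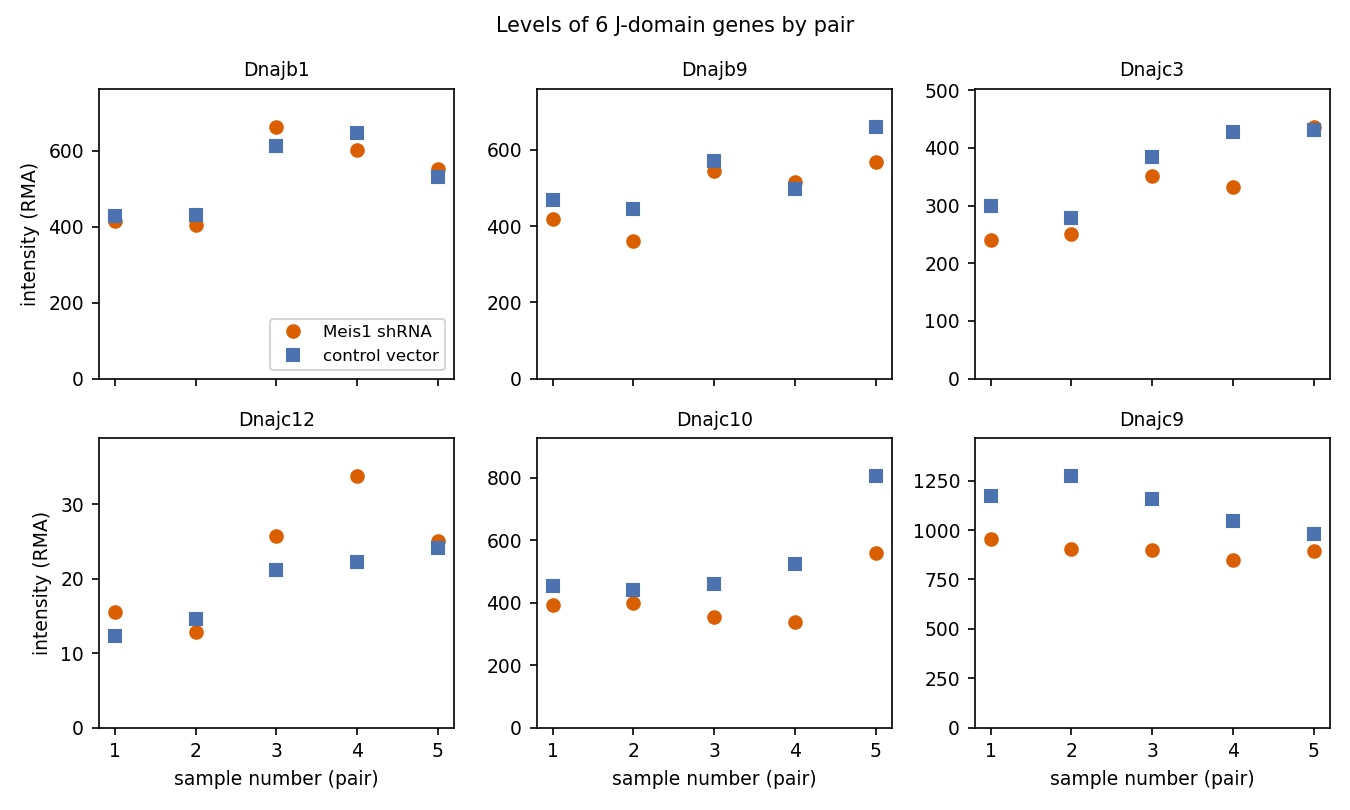
Intensity (linear axis from 0) of 6 J-domain genes by sample number, with Meis1 shRNA arrays as orange circles and control vector arrays as blue squares. Dnajb1, Dnajb9, Dnajc3 and Dnajc12 are lower in samples 1 and 2 than in 3 to 5 in both groups, Dnajc10 is highest in sample 5 of each, and Dnajc9 and Dnajc10 are lower with the shRNA in every pair.

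Genes that work with J-domain proteins were compared as 6 lists, with 62 of 67 entries measured. The calls were 3 lower and 0 higher, which left 59 genes that did not pass, and alternative settings called 0 to 10. The 10 were among 46 partners in the fit of brighter genes, where 1305 of all 6721 genes passed. With the RNA integrity ratio in the model, which called no partner, 2 of all 18193 genes passed. The 3 lower genes are 4.84% of the list, against 2.98% of all genes lower and 4.06% called either way. The median log2 change was -0.02 (0.00 over all genes). The 3 were 1 of 10 nucleotide exchange factors, 1 of 15 Hsp70 family genes and 1 of 12 genes in the late 60S maturation list. None of 11 genes of Hsp90 and its co-chaperones or of 3 J-domain proteins with other symbols (Gak, Sec63 and Hscb) passed. Nor did any of 11 genes in the list of heat shock factors and small heat shock proteins, which also holds the chaperonin genes Hspd1 and Hspe1. These 2 were the only ones over a mean log2 level of 5. The other 9 were dim, which limits what could be detected there.

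Bag2, an exchange factor that releases substrate from Hsp70 and inhibits the ubiquitin ligase Chip, fell the most. It read 149.7, 160.7, 125.8, 99.7 and 113.3 with the shRNA, against 257.5, 282.5, 257.3, 286.4 and 235.8 with the empty vector. The groups did not overlap, and the level was 2.06-fold lower with the shRNA (log2 change -1.04, SE 0.12, limma adjusted p = 0.00289). It passed without each pair in turn, and had a change of -0.78 with the RNA integrity ratio in the model, where no partner gene passed. Lsg1, the GTPase that releases the export adaptor Nmd3 from the pre-60S subunit, acts in the same late pathway as Dnajc21. It read 89.8, 131.5, 105.4, 85.7 and 127.3 with the shRNA, against 210.6, 185.6, 159.6, 192.9 and 166 with the empty vector, again with no overlap (1.71-fold lower, log2 change -0.78, SE 0.14, limma adjusted p = 0.0223). Without pair 1, 2, 3 or 4 its adjusted p by limma was 0.0733, 0.0566, 0.0616 and 0.096, while adding the RNA integrity ratio to the model gave a change of -0.32. The other genes of that list, which also holds factors of earlier 60S steps (Rrs1, Rpf2 and Brix1), had changes between -0.14 and 0.21. Zfp622, the relative of yeast Rei1, with which Jjj1 works in yeast, read 1205, 1248, 1157, 1169 and 1097 with the shRNA, against 1038, 1029, 1011, 1067 and 929 with the empty vector. It was higher in every shRNA array without passing (0.21, SE 0.07, limma adjusted p = 0.177).

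Hspa13, a microsomal Hsp70 relative, read 341, 258, 482.4, 469.6 and 654.6 with the shRNA, against 581.5, 518.1, 649, 783.9 and 911.2 with the empty vector. The ranges overlapped, but each shRNA array was below its partner (log2 change -0.68, SE 0.10, limma adjusted p = 0.0103). For this probe set the unpaired fit gave an adjusted p of 0.171 by limma, and without pair 4 it was 0.0548. Another probe set of Hspa13, 1429502_at, read 14.8 to 22.4 with the shRNA and 23.4 to 38.8 with the empty vector, with no overlap (-0.76, SE 0.10, limma adjusted p = 0.00657 over all probe sets). The other 2 were lower in all 5 pairs and did not pass. The Hsp70s that partner most cytosolic and lumenal J-domain proteins did not pass. Hspa8, the constitutive cytosolic form, changed by -0.01 (SE 0.08), Hspa5, which is BiP, by -0.13 (SE 0.07) and the mitochondrial Hspa9 by 0.07 (SE 0.08). Hspa2, which was dim, changed by -0.45 (SE 0.14, limma adjusted p = 0.137). Hspa4l was higher in 5 of 5 pairs (0.44, SE 0.13, limma adjusted p = 0.110) and Hsph1 lower in 5 of 5 (-0.28, SE 0.08, limma adjusted p = 0.0998). Neither passed. The change of further exchange factors ranged from -0.31 (Grpel2, SE 0.09, limma adjusted p = 0.126) to 0.25 (Bag6). In the remaining lists the largest differences were those of Hspb6 (-0.28), Hscb (-0.26), Ahsa2 (-0.23), Fkbp5 (-0.22), Hspb1 (0.18) and Sec63 (-0.15), with limma adjusted p from 0.128 to 0.523. Bag6 read 575.2 to 682.8 with the shRNA and 488.6 to 556.4 with the empty vector, apart but not past the threshold (limma adjusted p = 0.133).

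**Figure D5:**
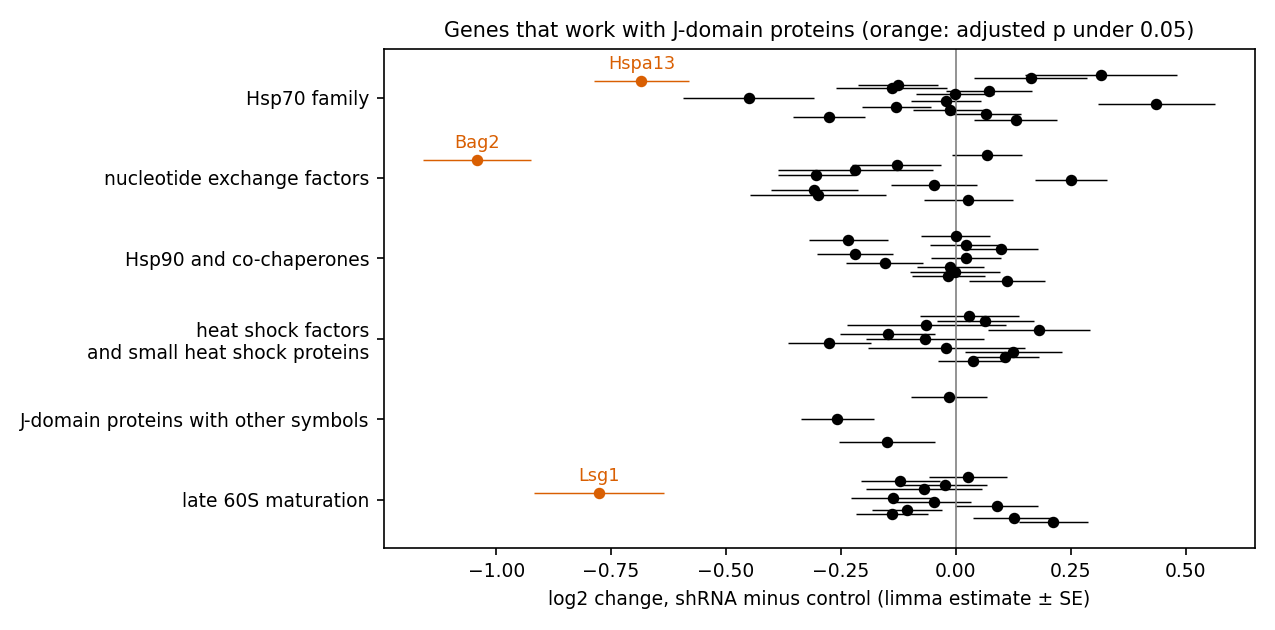
Log2 change (shRNA minus control, horizontal axis, limma estimate ± SE) of the 62 measured genes that work with J-domain proteins, in 6 lists. Orange marks an adjusted p under 0.05. Bag2, Lsg1 and Hspa13 lie at -1.04, -0.78 and -0.68, and the others lie between -0.45 and 0.44.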

How the data were processed

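Arrays of 10 samples were analysed, 5 per group. The authors deposited 1 linear intensity per probe set and array, from RMA per the submitters' processing notes, with no RMA version or settings given in the sources used here. RMA output is usually log2, so a conversion to linear values is likely but not stated. They ran from 1.30 to 32400 and were log2-transformed here with a pseudocount of 0. RMA is known to compress large changes, no detection calls were used, and the number of arrays limits the precision.

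After 64 controls were left out, 34945 of 45037 probe sets had 1 gene symbol in the platform annotation, giving 18193 genes. Groups were compared with limma 3.58.1 (R 4.3.3), with sample pairs as a fixed block, two-sided, and Benjamini-Hochberg adjustment over all genes (or all probe sets, where stated) at 0.05. The code was tested on simulated data. The labels' treatment protocol gives the pairing. Across the 11215 brighter probe sets (mean log2 level over 5), same-numbered samples had correlated deviations (0.600, 0.462, 0.339, 0.310 and 0.557 for pairs 1 to 5). Array-to-array correlations were 0.986 to 0.996.

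Members, roles and lists were chosen with earlier results of these data known. Named genes were all members past the threshold, the 2 largest changes in each role and list, and, chosen after their values were seen, genes with called probe sets, complete separation or large pair differences. Levels of different probe sets served to pick the brightest and to call them bright or dim, and were not read as amounts of transcript. Alternatives were another normalization, no block or a random block, other moderation, array weights, brighter genes only, the mean of probe sets, each pair left out, and the ratio of 3 prime over 5 prime control signal as a covariate. Counts of probe sets under these were added after seeing the data.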

Additional observations from a re-analysis of the deposited data

Results flagged for a closer look

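Of 112 groups of 5 arrays examined (56 genes, both groups), 5 held an array far from the other 4 by Dixon's criterion, about as many as the 1 in 20 that chance gives. Dnajb5 read 20.9 in shRNA sample 5, against 11.4 to 13.0 in the other shRNA samples. Dnajc22 read 27.9 in shRNA sample 1, against 20.7 to 21.96 in the other shRNA samples, and 17.2 in control sample 5, against 26.3 to 29.4 in the other controls. Dnajc6 read 19.7 in shRNA sample 2, against 6.98 to 8.79 in the other shRNA samples. Dnajc10 read 805.3 in control sample 5, against 440 to 522.9 in the other controls. Without pair 5 its log2 change was -0.34 (limma adjusted p = 0.129), against -0.37 with all pairs.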

How the results depend on the processing

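The log2 change of Dnajc21, a description since the gene was chosen for it, was -1.82 to -1.61 when 1 pair was left out. Over 27 single genes and the 3 prime over 5 prime ratio, 333 values kept their direction and side of the threshold, 24 passed newly, 12 no longer passed and 5 reversed. The reversals were Dnajc30 with quantile normalization (0.039), Dnajc15 without pair 4 (0.0037, within a range of -0.16 to 0.0037 over the pairs left out) and, with the covariate, Dnajc15 (0.20), Dnajc17 (-0.043) and Dnajc2 (0.051). The cause was not tested.

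The pairs came from the labels. Without the replicate block 500 genes passed, with 1 J-domain gene, 6 J-domain probe sets and 2 partner genes. With the block as a random effect there were 743 genes, 4 J-domain genes, 7 probe sets and 2 partners. The main setting gave 739 genes, 1 J-domain gene, 9 probe sets and 3 partners. Trend and robust eBayes gave 1497, 5, 13 and 8. Of all 45037 probe sets, these 4 settings called 816, 1021, 1116 and 2309, in the same order. The brighter genes alone gave 1305 of 6721 genes, 5 of 25 J-domain genes, 13 of 47 probe sets (1 of them higher) and 10 of 46 partners. Of the 11215 brighter probe sets in the whole table, 2040 were called. Median centring gave 823 genes with 3 J-domain genes, array weights 909 with 3 and the mean of probe sets 855 with 6. Dnajc5 passed in each of these 3, as did Dnajc16. Quantile normalization gave 5 J-domain probe sets, where 985 of all probe sets were called, and a median J-domain change of 0.048, against -0.01. The covariate gave 2 genes, 0 J-domain genes, 0 probe sets and 0 partners. Leaving out 1 pair gave 243 (without pair 4) to 929 genes (without pair 5), 1 to 2 J-domain genes and 1 to 4 partners. Median changes in these fits were -0.03 to 0.01. They called 4 to 10 J-domain probe sets, where 359 to 1674 of all probe sets were called. Arrays carry no counts, so 5 per group and dim signal limit what could be detected, above all for the 19 members at a mean log2 level of 5 or less.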
